A study of Mus musculus with 12 samples.

Results

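The mitochondrial ribosomal protein genes are the nuclear genes whose symbols begin with Mrpl or Mrps followed by a number. They were picked by symbol from the platform annotation, and no measured difference entered that rule. The family itself was chosen with earlier results of these data known. A gene with several probe sets of its own was represented by the one with the highest mean over all 12 arrays. This gave 76 genes, 47 Mrpl and 29 Mrps, of 18193 genes measured. Mrpl30 and Mrpl53 appeared only in probe sets shared with other genes and were not measured on their own. By their place in the ribosome 49 encode proteins of the large subunit, Mrps30 and Mrps18a among them, and 26 encode proteins of the small subunit. The remaining gene, Mrps36, carries the symbol of the family, but its protein is an adaptor of the oxoglutarate dehydrogenase complex and not a ribosomal subunit.

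Mitochondria carry their own ribosome, which translates the few mRNAs of mitochondrial DNA into core subunits of the respiratory chain and the ATP synthase. Its RNA is made inside the organelle, whereas all of its proteins are encoded in the nucleus, translated in the cytosol and imported. Some of these proteins have a counterpart in the bacterial ribosome and others are found only in mitochondria. In macrophages activated with LPS and IFNγ, NO made by NOS2 is known as an inhibitor of respiration, and Nos2-/- mice lack a working NOS2.

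RNA came from bone marrow-derived macrophages (BMDMs), which are macrophages grown from bone marrow with 20 ng/mL of M-CSF. The groups were stimulated Nos2-/-, untreated Nos2-/-, stimulated WT and untreated WT BMDMs, with 3 arrays in each. Stimulation lasted 8 h and combined LPS at 100 ng/mL with IFNγ at 50 ng/mL. The methods give vehicle (PBS) for the same time to the other cells, while the labels place them before stimulation, so they are called untreated here. Nos2-/- mice were of the strain B6.129P2-Nos2tm1Lau/J and WT mice were C57BL/6, and mice of 6 to 10 weeks were matched for age and sex. The knockout is constitutive, so every cell of these mice carries it. The labels call the 3 arrays of a group biological replicates, and the sources used here do not say whether these were separate mice or separate cultures, so the p-values measure the spread between replicates of that kind.

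The values are log2 signals from Affymetrix Mouse Genome 430 2.0 arrays, and a difference of 1 is a 2-fold difference. Groups were compared with limma across all 18193 genes, and a gene was called when its Benjamini-Hochberg adjusted p was under 0.05. The number of arrays limits the precision. Arrays of a group correlated at 0.996 or above. Nos2 had log2 signals of 7.74, 7.45 and 7.88 on the stimulated Nos2-/- arrays, against 9.73, 9.81 and 9.64 on the stimulated WT arrays. It had 5.15, 5.41 and 5.36 on the untreated Nos2-/- arrays, against 5.45, 5.4 and 5.65 on the untreated WT arrays. It is not known here whether its probes match the deleted stretch, so these values do not check the genotype by themselves. All 7 macrophage markers lay above the median signal of all genes. The mean of 5 neutrophil markers was 7.85 to 7.98 on stimulated Nos2-/- arrays against 6.65 to 7.09 on untreated Nos2-/- arrays. It was 7.75 to 7.8 on stimulated WT arrays against 6.56 to 6.92 on untreated WT arrays. Of these markers, S100a8, S100a9 and Camp lay above the median signal of all genes of 6.12. S100a8 rose by far the most, averaging 12.67 on stimulated against 9.1 on untreated Nos2-/- arrays, and 12.27 against 8.88 on WT arrays. S100a9 averaged 9.07 against 8.56 in Nos2-/- and 8.78 against 8.39 in WT. The granule gene Camp averaged 7.15 on stimulated against 6.19 on untreated Nos2-/- arrays, and 7.09 on stimulated against 6.27 on untreated WT arrays, and was called higher in both. The granule genes Mpo and Elane lay below that median. Mpo averaged 5.53 against 5.07 in Nos2-/- and 5.37 against 5.09 in WT, called higher in both, and Elane averaged 5.22 against 5.24 in Nos2-/- and 5.32 in both WT groups and was not called. The part of such cells in the results was not tested. In RNA from whole cultures, fewer cells of a type and less RNA per cell cannot be told apart.

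Promoter windows are shown for 4 genes because they span the responses described next, with 3 genes that fell at least 2-fold in both genotypes and the gene that rose most. Genes that fell further than Mrpl33 and Mrps26, Mrps28, Mrpl23 and Mrps6 among them, are not shown. RefSeq (GRCm38.p6) gave a window of 300 bases, 250 before and 50 after the annotated start, for 67 of the 76 genes. The last 150 bases of each window are printed 5′ to 3′ on the gene's strand, so that the start is the base after the first 100. Capitals mark letters that match one of 5 motifs searched on both strands. The motifs were the NRF1 core GCATGCGC, the ETS motif CCGGAAG, the YY1 motif AGATGGCG, the E-box CACGTG and the CRE TGACGTCA.
Mrpl42, chr10:95501900-95502049, minus strand: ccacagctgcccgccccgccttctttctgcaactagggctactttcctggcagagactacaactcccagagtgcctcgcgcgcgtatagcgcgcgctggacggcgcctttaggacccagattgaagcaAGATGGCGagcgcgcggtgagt
Mrpl33, chr5:31613851-31614000, plus strand: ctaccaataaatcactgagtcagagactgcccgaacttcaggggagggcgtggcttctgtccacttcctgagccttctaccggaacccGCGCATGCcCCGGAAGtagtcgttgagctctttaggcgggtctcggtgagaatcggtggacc
Mrps26, chr2:130563657-130563806, plus strand: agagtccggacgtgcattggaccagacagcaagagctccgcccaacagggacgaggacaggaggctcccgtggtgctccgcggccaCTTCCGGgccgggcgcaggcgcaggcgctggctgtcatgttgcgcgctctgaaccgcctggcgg
Mrpl52, chr14:54426809-54426958, plus strand: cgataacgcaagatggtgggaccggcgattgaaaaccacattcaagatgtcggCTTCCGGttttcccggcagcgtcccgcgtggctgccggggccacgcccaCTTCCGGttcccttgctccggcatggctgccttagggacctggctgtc

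The YY1 letters of Mrpl42 began at position 29, counted from 1 at the annotated start. In Mrpl33 the NRF1 letters, on the opposite strand, began at -12 and the ETS letters at -3, with 1 base between them. The ETS letters of Mrps26 lay on the opposite strand at -14. Mrpl52 held the ETS letters on the opposite strand at -47 and at 3. So Mrpl33 and Mrps26, which fell, and Mrpl52, which rose, held ETS letters near the start, and Mrpl42 held none in its window.

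Over all windows the motifs differed in how often they were found, and no test of these shares was made. ETS letters stood in 24 of 67 windows (35.8%), against 13.8% of the 14367 measured genes with a window. YY1 letters stood in 8 (11.9%), against 3.02%, and the NRF1 core in 8 (11.9%), against 4.29%. The E-box was present in 5 (7.46%), against 9.04%, and the CRE in 2 (2.99%), against 2.69%. At least 1 of the 5 motifs was found in 38 windows (56.7%), against 28.3% of all genes. Each of the genes printed above held at least 1, so they do not stand for the family in this. Of the genes that fell in both genotypes 46 had a window, and 16 of these (34.8%) held ETS letters, against 8 of the other 21 (38.1%). The NRF1 core was in 3 (6.52%) against 5 (23.8%), the YY1 letters in 6 (13.0%) against 2 (9.52%), the E-box in 3 (6.52%) against 2 (9.52%) and the CRE in 2 (4.35%) against 0, counts too small to read an order from. A match is a description of letters in the window and not a site of binding.

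Stimulation lowered most of the family in both genotypes. In Nos2-/- BMDMs 57 of 76 genes were called lower and 5 higher, and in WT BMDMs 54 were called lower and 5 higher. Over all genes 28.2% were called lower and 26.3% higher in Nos2-/-, and 28.4% lower and 29.6% higher in WT. Every one of the 76 genes lay above the median signal, and among all genes at or above it 47.3% were called lower in Nos2-/- and 48.1% in WT. The median log2 change of the family was -0.53 in Nos2-/- and -0.43 in WT, against 0.05 and 0.07 over all genes and -0.14 and -0.15 over those at or above the median signal. A fall of 1.5-fold or more was measured for 31 genes in Nos2-/- (40.8%) and 28 in WT (36.8%), against 29.4% and 28.9% of all genes at or above the median signal. A fall of 2-fold or more was measured for 14 genes in Nos2-/- (18.4%) and 8 in WT (10.5%), against 16.5% and 15.5% of those genes. No test of these shares was made. Stimulated and untreated arrays did not overlap for 60 genes that were lower and 6 that were higher in Nos2-/-, against 29.9% and 30.5% of all genes. In WT they did not overlap for 59 lower and 9 higher genes, against 30.4% and 34.7% of all genes.

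**Figure D1:**
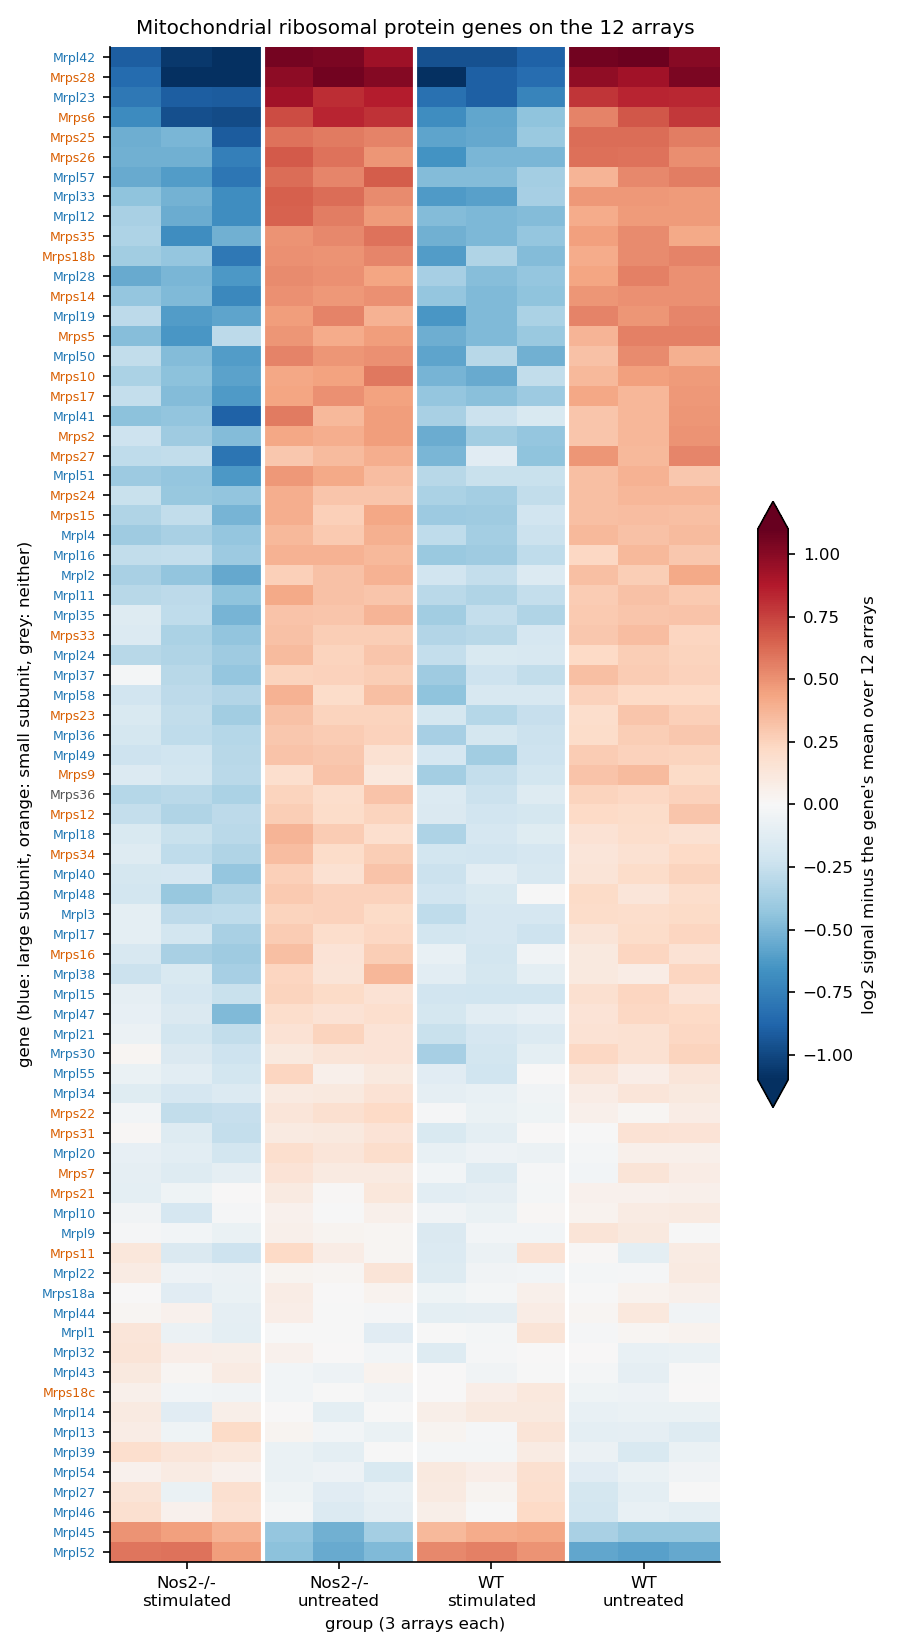
Log2 signal of each of the 76 genes (rows) on each of the 12 arrays (columns, 3 per group) minus the gene's own mean over all arrays, with red above and blue below that mean and values beyond 1.1 shown at the end of the scale. Most rows are blue on stimulated arrays and red on untreated arrays of both genotypes, and the rows of Mrpl45 and Mrpl52 at the bottom run the other way.

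The same order showed on every array. The median over the 76 genes of the deviation from each gene's mean was -0.17, -0.27 and -0.34 on the stimulated Nos2-/- arrays, against 0.28, 0.25 and 0.26 on the untreated Nos2-/- arrays. It was -0.24, -0.21 and -0.18 on the stimulated WT arrays, against 0.22, 0.23 and 0.24 on the untreated WT arrays. Stimulated and untreated arrays did not overlap in either genotype, whereas the stimulated arrays of the 2 genotypes did. The untreated arrays of the 2 genotypes did not overlap, with Nos2-/- at 0.25 to 0.28 and WT at 0.22 to 0.24. Stimulated Nos2-/- arrays spread the most, with a median SD over the genes of 0.11, against 0.05 in untreated Nos2-/-, 0.07 in stimulated WT and 0.04 in untreated WT. Replicate 3 of stimulated Nos2-/- had the lowest value of its group for 58 of the 76 genes.

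Mrpl42, a large subunit protein found only in mitochondria, fell the most. The gene (at chr10:95480805-95501949, GRCm38.p6) gave log2 signals of 8.48, 8.33 and 8.02 in stimulated Nos2-/-, against 10.44, 10.43 and 10.32 in untreated Nos2-/-. In stimulated WT it gave 8.43, 8.43 and 8.5, against 10.45, 10.47 and 10.39 in untreated WT. All 6 stimulated arrays lay far below all 6 untreated arrays. The log2 change was -2.12 ± 0.10 (SE) in Nos2-/-, a 4.36-fold fall (limma adjusted p = 1.8e-10), and -1.98 ± 0.10 in WT, a 3.96-fold fall (adjusted p = 4.1e-10). Its other probe set was dim, with a mean log2 signal of 3.14, and was not called in either genotype.

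Mrps28, the counterpart of the bacterial small subunit protein S1, followed. It gave 7.84, 7.59 and 7.49 in stimulated Nos2-/-, against 9.67, 9.75 and 9.7 in untreated Nos2-/-. In WT the stimulated arrays gave 7.57, 7.79 and 7.85, against 9.66, 9.61 and 9.72 in untreated WT. Stimulated and untreated arrays were again apart in both genotypes. The log2 change was -2.07 ± 0.09 in Nos2-/- and -1.93 ± 0.09 in WT (limma adjusted p = 1.8e-10 and 4.2e-10).

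Mrpl23, whose bacterial counterpart sits at the exit of the tunnel through which the new protein leaves, gave 8.47, 8.35 and 8.34 in stimulated Nos2-/-, against 10.18, 10.07 and 10.12 in untreated Nos2-/-. It gave 8.43, 8.36 and 8.53 in stimulated WT, against 10.04, 10.09 and 10.08 in untreated WT. The 6 stimulated arrays spanned less than 0.2 and lay more than 1.5 below every untreated array. The log2 change was -1.74 ± 0.07 in Nos2-/- and -1.63 ± 0.07 in WT (limma adjusted p = 3.2e-11 and 6.9e-11).

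Mrps6, the counterpart of bacterial S6, gave 8.16, 7.89 and 7.87 in stimulated Nos2-/-, against 9.57, 9.69 and 9.65 in untreated Nos2-/-. It gave 8.17, 8.28 and 8.41 in stimulated WT, against 9.4, 9.54 and 9.63 in untreated WT. Stimulated arrays lay below untreated arrays in both genotypes, and the Nos2-/- arrays lay below those of WT after stimulation. The log2 change was -1.66 ± 0.09 in Nos2-/- and -1.24 ± 0.09 in WT, and the second probe set of the gene gave -1.56 and -1.12. The annotated span of Mrps6 (chr16:92058336-92112227) overlaps that of Slc5a3, a myo-inositol transporter gene, which fell by 3.67 in Nos2-/- and by 3.41 in WT on the log2 scale. The part of transcripts shared between these genes was not tested.

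**Figure D2:**
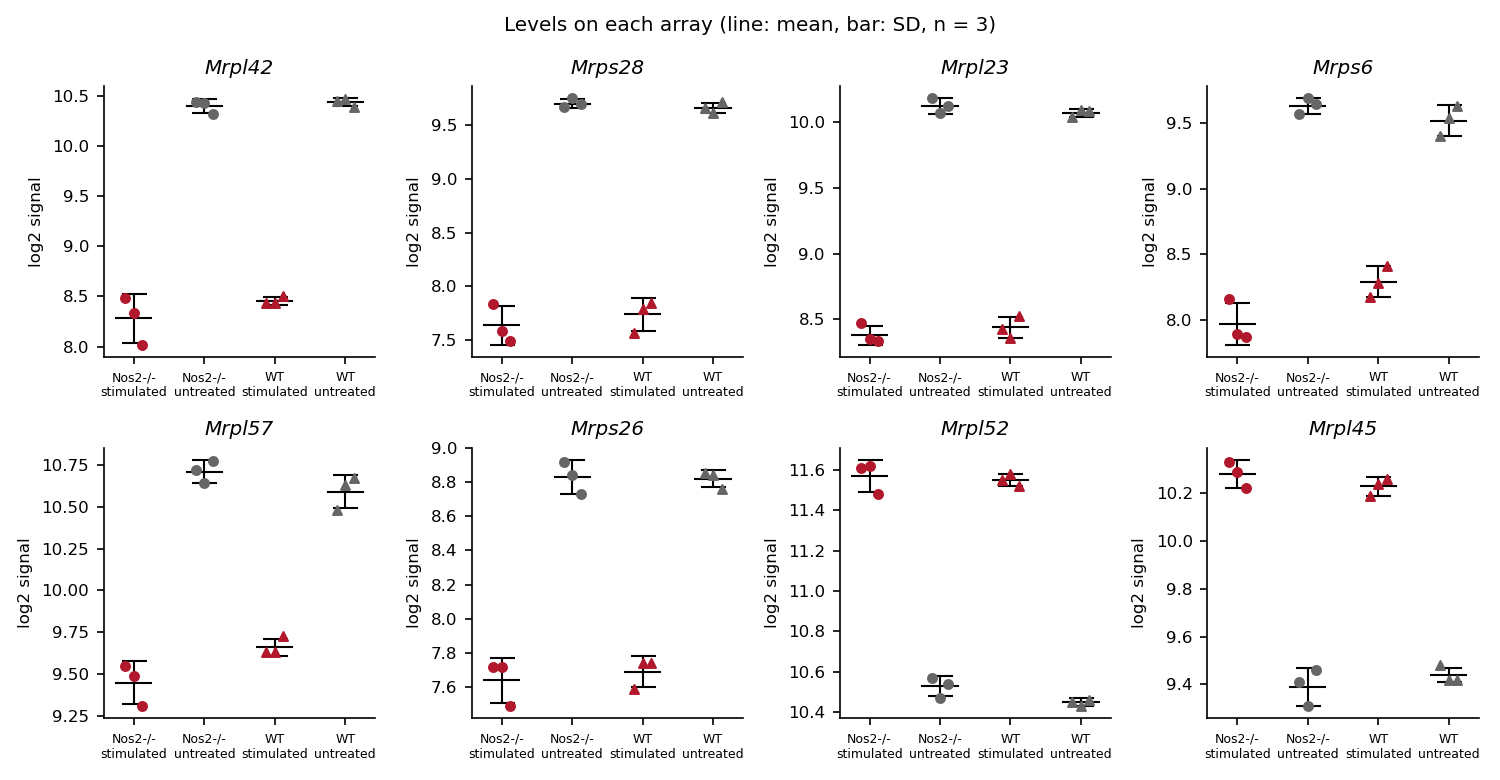
Log2 signal on each array (points, circles for Nos2-/- and triangles for WT, red when stimulated and grey when untreated) with the mean and SD of 3 arrays for 8 genes, each on its own axis, which does not start at 0. Stimulated arrays lie below untreated arrays for Mrpl42, Mrps28, Mrpl23, Mrps6, Mrpl57 and Mrps26, and above them for Mrpl52 and Mrpl45.

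The next falls in Nos2-/- were in Mrpl57, Mrps25 and Mrps26, which encode proteins found only in mitochondria. Mrpl57 of the large subunit fell to 9.55, 9.49 and 9.31 in stimulated Nos2-/-, against 10.72, 10.64 and 10.77 in untreated Nos2-/-, a log2 change of -1.26 ± 0.08. In stimulated WT it was 9.63, 9.63 and 9.73, against 10.48, 10.63 and 10.67 in untreated WT, a change of -0.93 ± 0.08. Both responses of Mrpl57 were called (limma adjusted p = 4.6e-09 in Nos2-/- and 1.3e-07 in WT). Mrps25 and Mrps26 of the small subunit changed by -1.22 ± 0.09 and -1.19 ± 0.08 in Nos2-/-, and by -1.11 ± 0.09 and -1.13 ± 0.08 in WT. Mrpl57 overlaps Ska3 (-0.71 in Nos2-/-, -0.65 in WT) and Mrps25 overlaps Nr2c2 (-0.84 and -0.93). In all 19 of the 76 genes overlap another protein-coding gene that was measured. In the 13 such pairs whose member was called lower in both genotypes, the other gene measured below 0 in both for 8 and above 0 in both for 3. Those 3 were Rab6a beside Mrpl48 (0.71 in Nos2-/-, 0.80 in WT), Syvn1 beside Mrpl49 (0.54 and 0.32) and 1700007K13Rik beside Mrps2 (0.36 and 0.45).

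The rest of the fall is best described by structural class. In the small subunit 23 of 26 genes were called lower in Nos2-/- and 20 of 26 in WT, none was called higher in either genotype, and the median log2 change was -0.72 and -0.68. In the large subunit 33 of 49 were called lower in both genotypes and 5 higher in each, and the median was -0.46 in Nos2-/- and -0.39 in WT. No test of the difference between the subunits was made.

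Among the 29 large subunit genes with a bacterial counterpart, 21 were called lower in each genotype. After Mrpl23 the largest WT changes were those of Mrpl19 (-0.96 in Nos2-/-, -1.01 in WT), Mrpl33 (-1.14 and -1.01) and Mrpl12 (-1.09 and -0.94), each called in both genotypes. Mrpl12 is the counterpart of the bacterial stalk protein that recruits translation factors. Mrpl33 gave 9.36, 9.28 and 9.12 in stimulated Nos2-/-, against 10.46, 10.41 and 10.32 in untreated Nos2-/-. It gave 9.18, 9.2 and 9.43 in stimulated WT, against 10.28, 10.28 and 10.27 in untreated WT. The smallest WT changes of this class were those of Mrpl32 (0.08 in Nos2-/-, 0.00 in WT) and Mrpl1 (0.03 and 0.02), neither of them called.

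Among the 20 large subunit genes found only in mitochondria, 12 were called lower in each genotype. Mrpl50 (-0.96 in Nos2-/-, -0.88 in WT) was among the larger falls, and Mrpl43 (0.09 and 0.03) and Mrps18a (-0.11 and -0.03) were not called. All genes called higher but Mrpl27 belonged to this class.

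Of the 16 small subunit genes with a bacterial counterpart, 13 were called lower in Nos2-/- and 12 in WT. Beside Mrps28 and Mrps6 they included Mrps5 (-0.92 in Nos2-/-, -0.97 in WT) and Mrps14 (-1.03 and -0.95). Mrps18c, 1 of several mammalian relatives of bacterial S18, measured 0.02 and 0.10 and was not called. Its relative Mrps18b, which takes another place in the small subunit and is counted with the proteins found only in mitochondria, measured -1.04 in Nos2-/- and -0.96 in WT and was called in both, and their relative Mrps18a was not called. Of the 10 small subunit genes found only in mitochondria, all 10 were called lower in Nos2-/- and 8 in WT. Mrps22 (-0.36 in Nos2-/-, -0.10 in WT) and Mrps31 (-0.25 and -0.19) were the 2 not called in WT. Mrps36, outside both subunits, measured -0.57 in Nos2-/- and -0.42 in WT and was called in both.

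A few genes moved against the family. Mrpl52, found only in mitochondria, had the highest mean signal of the 76 genes. It gave 11.61, 11.62 and 11.48 in stimulated Nos2-/-, against 10.57, 10.47 and 10.54 in untreated Nos2-/-. It gave 11.55, 11.58 and 11.52 in stimulated WT, against 10.45, 10.43 and 10.46 in untreated WT. All stimulated arrays lay above all untreated arrays, with log2 changes of 1.05 ± 0.06 in Nos2-/- and 1.1 ± 0.06 in WT (limma adjusted p = 2.6e-09 and 1.6e-09). The other 3 of its 4 probe sets also rose in both genotypes, by 1.29, 1.4 and 1.33 in Nos2-/- and by 1.26, 1.44 and 0.49 in WT.

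Mrpl45, which tethers the mitochondrial ribosome to the inner membrane in humans, gave 10.33, 10.29 and 10.22 in stimulated Nos2-/-, against 9.41, 9.31 and 9.46 in untreated Nos2-/-. It gave 10.19, 10.24 and 10.26 in stimulated WT, against 9.48, 9.42 and 9.42 in untreated WT. The groups did not overlap, and the log2 change was 0.89 ± 0.06 in Nos2-/- and 0.80 ± 0.06 in WT (limma adjusted p = 2.0e-08 and 7.1e-08). It has a single probe set.

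By their brightest probe sets, the other genes called higher moved far less. Mrpl46 measured 0.22 in Nos2-/- and 0.23 in WT, and Mrpl54 measured 0.16 and 0.19, both called in both genotypes. Mrpl39 was called in Nos2-/- (0.21) and not in WT (0.11), and Mrpl27 in WT (0.21) and not in Nos2-/- (0.17). For neither gene did the 2 responses differ by the test of their difference (limma adjusted p = 0.759 for Mrpl39 and 0.9318 for Mrpl27). The other probe set of each gene was called higher in both genotypes. That of Mrpl39, at a mean log2 signal of 8.95, measured 0.68 in Nos2-/- and 0.43 in WT. That of Mrpl27, at 7.29, measured 0.38 and 0.32. Mrpl46 and Mrps11 are neighbours on chromosome 7, with 41 bases between their annotated spans. Mrps11 measured -0.20 in Nos2-/- and -0.01 in WT and was not called.

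Responses in the 2 genotypes, which share no arrays, were close to each other. Of the genes called lower, 53 were so in both genotypes, which is 93.0% of those in Nos2-/- and 98.1% of those in WT. Mrpl9 was called lower only in WT, narrowly (-0.15, adjusted p = 0.048), and lost that call when any 1 of 10 of the 12 arrays was left out and with a replicate block. Called lower only in Nos2-/- were Mrpl20, Mrps7, Mrps22 and Mrps31. No gene was called in opposite directions, and 12 were called in neither genotype. Across the 76 genes, which are not independent replicates, the responses correlated at r = 0.98 (Spearman's rho = 0.96). The fall was larger in Nos2-/- for 43 of the 53 shared genes. The difference between the responses lay below 0 for 58 of the 76 genes. Over all genes it did so for 9674 of 18193, and for 4282 of the 9097 at or above the median signal. Each fall is measured from untreated arrays of its own genotype, where 54 of the 76 genes measured higher in Nos2-/-. Mean signal and response were only loosely related across the genes (rho = 0.14 in Nos2-/-, 0.20 in WT).

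**Figure D3:**
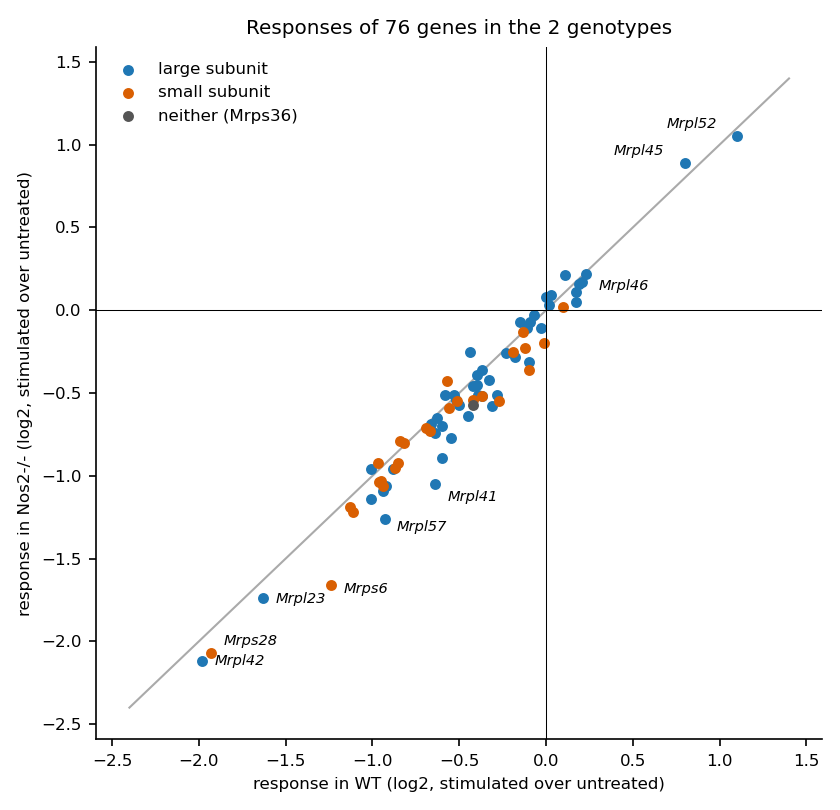
Log2 change of each of the 76 genes on stimulation in Nos2-/- (y axis) against that in WT (x axis), coloured by subunit, with the line of equal change in grey. The points follow the line from Mrpl42 at the lower left to Mrpl52 at the upper right, and Mrps6, Mrpl41 and Mrpl57 lie below it.

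Between the stimulated genotypes no gene of the family was called by its brightest probe set. Over all genes 1.91% were called lower and 1.03% higher in Nos2-/-. With no adjustment, limma gave a p under 0.05 to 10 of the 76 that were lower (13.2%) and to 2 that were higher. Over all genes 8.34% were lower and 6.72% higher at that threshold, and 11.2% were lower among genes at or above the median signal. The same model without moderation called none. The 3 comparisons that involve both genotypes share arrays and are not independent of each other. The median log2 difference was -0.04, against -0.01 over all genes, and it was -0.09 to 0.01 with arrays left out. Of the 76 genes 53 lay below 0, against 9481 of all 18193 genes and 4500 of the 9097 at or above the median signal. The 95% confidence interval of the difference stayed within 1.5-fold in either direction for all 76 genes.

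The genes with the lowest values of this difference were picked out after their values were seen. Mrpl41 of the large subunit gave 8.5, 8.51 and 8.06 in stimulated Nos2-/-, against 8.59, 8.71 and 8.78 in stimulated WT. All 3 Nos2-/- arrays lay below the WT arrays, and replicate 3 lay well below the other two. The difference of -0.34 (95% interval -0.57 to -0.10) did not pass the test (limma adjusted p = 0.1459). Its second bright probe set gave -0.31.

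Mrps6, with the stimulated values given above, differed by -0.31 (95% interval -0.51 to -0.12, adjusted p = 0.0986). Mrpl2, the counterpart of a bacterial protein close to the peptidyl transferase centre, gave 8.3, 8.23 and 8.1 in stimulated Nos2-/-, against 8.45, 8.4 and 8.51 in stimulated WT. Its arrays did not overlap, and the difference was -0.25 (95% interval -0.40 to -0.09, adjusted p = 0.0936). Mrpl2 overlaps Klc4, which measured -1.85 on stimulation in Nos2-/- and -1.59 in WT. Mrpl51 gave 10.15, 10.13 and 9.92 in stimulated Nos2-/-, against 10.25, 10.31 and 10.31 in stimulated WT, a difference of -0.22 (adjusted p = 0.1328). Mrpl57 differed by -0.22 (adjusted p = 0.1872). The arrays of the 2 genotypes did not overlap for 11 genes that were lower and 3 that were higher in stimulated Nos2-/-, and over all genes these shares were 8.89% and 8.21%.

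**Figure D4:**
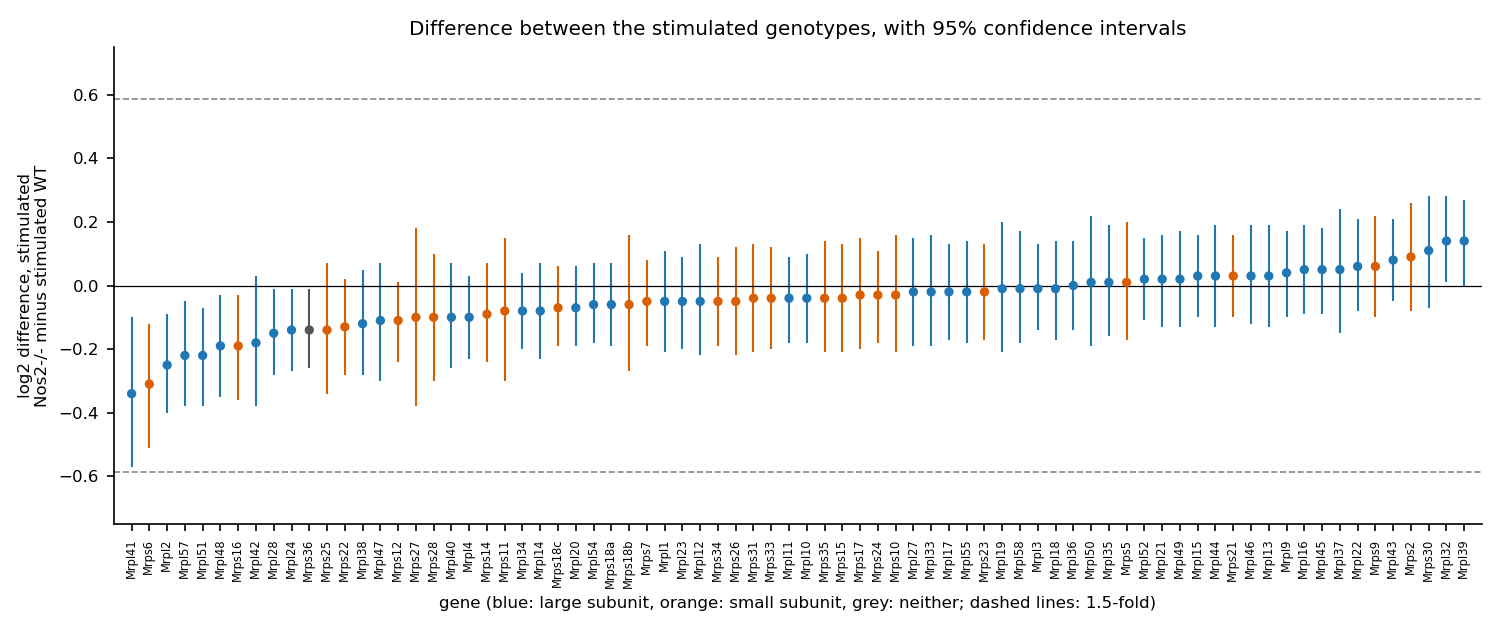
Log2 difference of stimulated Nos2-/- minus stimulated WT (y axis) for each of the 76 genes (x axis, ordered by value), with 95% confidence intervals from the fit and dashed lines at 1.5-fold. All intervals lie inside the dashed lines, and those of Mrpl41 and Mrps6 reach furthest down.

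Before stimulation the genotypes were closer still. None of the 76 genes was called between untreated Nos2-/- and untreated WT, where 0.0055% of all genes were called in each direction. At an unadjusted p under 0.05, limma gave 1 gene higher (1.32%) and none lower, against 1.95% and 2.05% of all genes, and the model without moderation called none. Differences ran from -0.11 to 0.14 with a median of 0.03, and 54 of the 76 genes lay above 0. Over all genes 9167 of 18193 lay above 0, as did 3902 of the 9097 at or above the median signal. Every 95% interval stayed within 1.5-fold. The arrays of the genotypes did not overlap for 8 genes that were higher and 1 that was lower in untreated Nos2-/-, against 6.24% and 6.4% of all genes.

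The difference between the 2 responses, which uses all 12 arrays, was called for none of the 76 genes, where 0.676% of all genes were called lower and 0.302% higher. With no adjustment, limma gave a p under 0.05 to 10 genes (13.2%), all of them lower. At that threshold 5.26% of all genes were lower and 4.77% higher. Among genes at or above the median signal 6.23% were lower and 7.38% higher. The model without moderation called none of the 76. The median was -0.07, against -0.01 over all genes. For 74 genes the 95% interval stayed within 1.5-fold. The others were Mrpl41 (-0.42, 95% interval -0.75 to -0.08) and Mrps6 (-0.42, -0.71 to -0.14), whose intervals reach past a 1.5-fold larger fall in Nos2-/-.

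Nos2 lies on chromosome 11, as do 11 of the 76 genes, and the knockout allele was brought in from another strain. The nearest, Mrps23, lies 9.23 Mb away and differed by -0.02 between the stimulated genotypes, and Mrpl27, at 15.7 Mb, also by -0.02. Mrpl10, Mrpl45 and Mrpl55, at 18.1, 18.4 and 19.7 Mb, differed by -0.04, 0.05 and -0.02. Over the 11 genes the difference ran from -0.12 to 0.06.

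Where a gene had several probe sets, the bright ones largely moved together. The 76 genes had 156 probe sets of their own, and 42 genes had more than 1. In Nos2-/- 94 of the 156 were called lower and 13 higher, and in WT 87 lower and 15 higher. These calls come from a separate fit over all 34945 probe sets that name 1 gene, and the share called over all of them is not given here. By the brightest probe set of each gene, 28.2% of all genes were called lower and 26.3% higher in Nos2-/-. In WT these shares were 28.4% and 29.6%. Mrpl1, Mrpl17, Mrpl41, Mrpl48 and Mrpl58 had probe sets called in opposite directions in WT, and Mrpl13, Mrpl48 and Mrpl58 in Nos2-/-. Among the 26 genes with at least 2 probe sets above the median signal, none had this in either genotype. For Mrpl1, the brightest probe set measured 0.03 in Nos2-/- and 0.02 in WT, while another at a mean log2 signal of 6.91 measured -0.62 and -0.61. For Mrpl28, probe sets at 9.20 and 8.73 measured -1.06 and -1.08 in Nos2-/- and -0.92 and -1.11 in WT, while another at 8.75 measured -0.12 and -0.15. Between the stimulated genotypes 1.03% of all genes were called higher in Nos2-/- by their brightest probe set. Of the 156 probe sets 2 were called there, both higher in Nos2-/-. They were the less bright one of Mrpl39, at 8.95 (0.26, limma over all probe sets, adjusted p = 0.0375), and the dimmest of Mrpl52, at 5.34 (0.67, adjusted p = 0.0031).

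The wider machinery of mitochondrial translation was followed through lists of related genes. For comparison with the counts below, 28.2% of all genes were called lower and 26.3% higher in Nos2-/-, and 28.4% and 29.6% in WT. Among genes at or above the median signal, 47.3% were called lower in Nos2-/- and 48.1% in WT. Other mitochondrial ribosomal proteins whose symbols do not begin with Mrp had 4 measured genes. Ptcd3 (-0.68 in Nos2-/-, -0.70 in WT), Chchd1 (-0.78 and -0.76) and Gadd45gip1 (-0.49 and -0.46) were called lower in both genotypes. Dap3, a GTP-binding protein of the small subunit, was called higher in WT (0.18) and not in Nos2-/- (0.10).

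Of 12 mitochondrial translation factors, 9 were called lower and 1 higher in each genotype, with medians of -0.56 in Nos2-/- and -0.47 in WT. The largest falls were in Guf1, the mitochondrial counterpart of a bacterial elongation GTPase (-1.87 in Nos2-/-, -1.81 in WT), and in Pdf, which removes the formyl group from the first methionine of new proteins, and Metap1d, which removes that methionine (-2.02 and -1.46 for Metap1d, -1.38 and -1.24 for Pdf). The ribosome recycling factor Mrrf measured -0.85 and -0.65. The initiation factor Mtif3 rose by 0.33 in Nos2-/- and 0.27 in WT. Guf1 and Metap1d were dim on stimulated arrays, averaging 4.63 and 4.8 in Nos2-/- and 4.7 and 5.32 in WT. These values lie below the median signal of all genes of 6.12.

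Of 25 assembly and rRNA modification factors, 15 were called lower and none higher in Nos2-/-, and 17 lower and 2 higher in WT, with medians of -0.39 and -0.45. Noa1 (-1.43 in Nos2-/-, -1.67 in WT), Rbfa (-1.94 and -1.65), Rcc1l (-1.41 and -1.52) and Mettl15 (-1.25 and -1.19) fell most in WT. Afg3l2 and Ybey were called higher in WT only. This list also held genes called between the stimulated genotypes, 2 of 25 higher and 3 lower, against 1.03% and 1.91% of all genes. Noa1 and Ddx28 were higher in Nos2-/- by 0.35 each, and Afg3l2, Mtg1 and Ybey were lower, with differences of -0.49, -0.45 and -0.34 (limma adjusted p from 7.7e-04 for Afg3l2 to 0.0478 for Ybey). Mettl15 and Ybey were dim on stimulated arrays, averaging 4.71 and 4.77 in Nos2-/- and 4.9 and 5.11 in WT. Mtg1 averaged 5.95 on stimulated Nos2-/- arrays and 6.4 on stimulated WT arrays, against a median signal of all genes of 6.12.

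**Figure D5:**
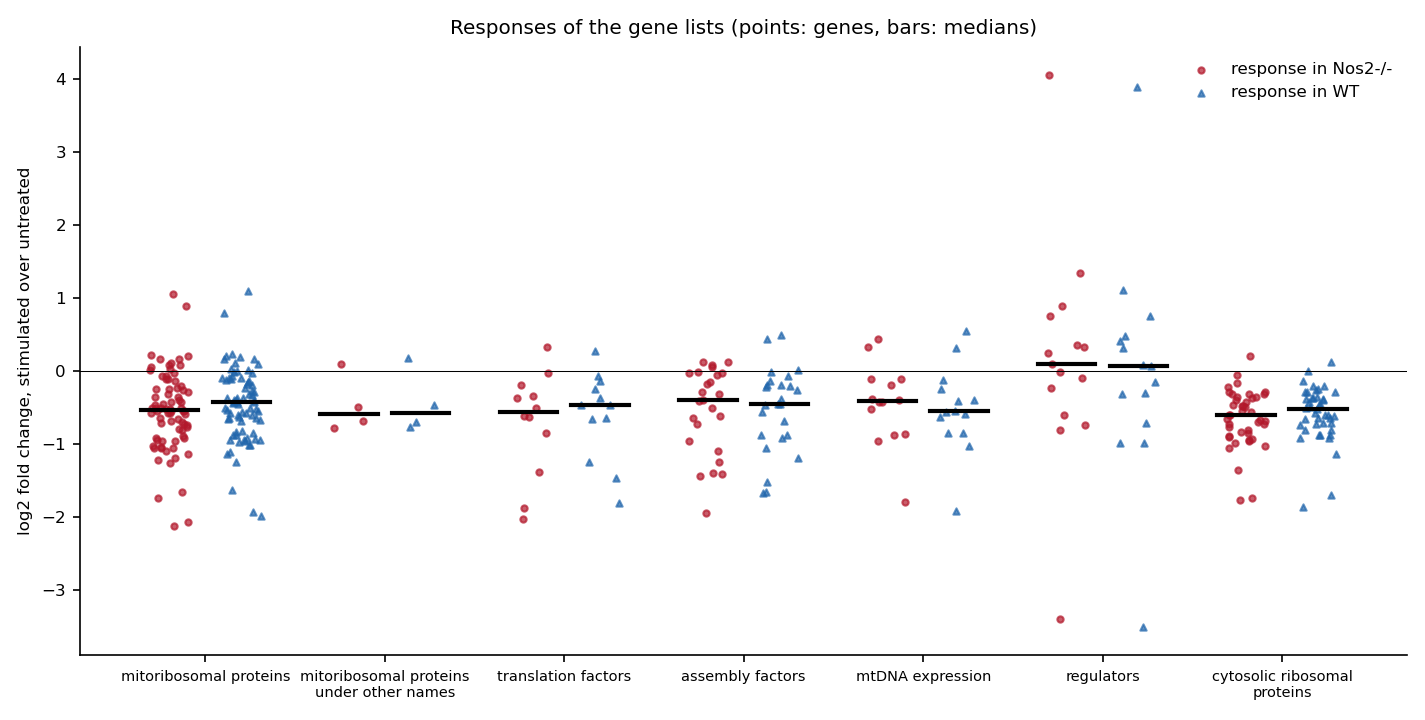
Log2 change on stimulation of each gene (points, red circles in Nos2-/- and blue triangles in WT) in 7 groups, with bars at the medians. The medians of the mitochondrial ribosomal proteins (-0.53 in Nos2-/-, -0.43 in WT) and of the cytosolic ribosomal proteins (-0.60 and -0.52) lie below 0, and that of the regulators lies near 0 with Mxd1 and Myc far apart.

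Of 14 genes for transcription and upkeep of mitochondrial DNA, 10 were called lower and 2 higher in Nos2-/-, and 11 lower and 2 higher in WT. Lrpprc, which stabilises mitochondrial mRNAs, measured -1.79 in Nos2-/- and -1.92 in WT, while its partner Slirp rose by 0.33 and 0.55. The mitochondrial RNA polymerase Polrmt measured -0.86 and -1.02, the single-strand binding protein Ssbp1 -0.96 and -0.85 and the transcription factor Tfb2m -0.87 and -0.85.

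Of 15 regulators of mitochondrial and ribosomal genes, 7 were called higher and 5 lower in Nos2-/-, and 6 higher and 6 lower in WT. Myc, a transcription factor known to drive ribosome production, measured -3.39 in Nos2-/- and -3.51 in WT. On stimulated arrays Myc was dim, averaging 5.09 in Nos2-/- and 4.84 in WT, below the median signal of all genes of 6.12. Mxd1, which competes with Myc for its partner Max, rose by 4.06 and 3.89, and Max rose by 1.35 and 1.11. Gabpa, the ETS factor known as NRF2 in humans, measured -0.74 and -0.99. Nrf1 measured -0.23 and -0.32, both called, and Yy1 was not called (0.10 and 0.07). None of these 6 was called between the stimulated genotypes, and of the 15 only Mlxip was (0.29 higher in Nos2-/-, limma adjusted p = 0.0276).

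The proteins of the cytosolic ribosome are made from a separate set of genes, of which 43 had a probe set of their own. In Nos2-/- 41 of them were called lower and none higher, and in WT 40 were called lower and none higher. Over all genes 28.2% were called lower in Nos2-/- and 28.4% in WT. Among those at or above the median signal 47.3% and 48.1% were called lower. The median of the 43 genes was -0.60 and -0.52, so this family fell at least as far as the mitochondrial one, with no test of the difference between them. Rpl12 (-1.74 in Nos2-/-, -1.86 in WT), Rpl14 (-1.76 and -1.70) and Rpsa (-1.36 and -1.13) fell the most in WT. The probe sets of Rpl12 and Rpl14 were dim, averaging 7.05 and 7.72 on untreated WT arrays, against 12.82 for Rpsa. On stimulated WT arrays they averaged 5.19 and 6.03, below the median signal of all genes of 6.12. None of the 43 was called between the stimulated genotypes, where limma gave 2 of them an unadjusted p under 0.05, both lower in Nos2-/-. At that threshold 8.34% of all genes were lower.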

How the data were processed

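RMA was run by the authors in Partek (version not given in the sources used here), and they deposited log2 signals for 45101 probe sets. RMA corrects background, normalizes between arrays and summarizes probes, so a shift shared by all genes is removed. After 64 control probe sets were left out, 34945 name 1 gene, 932 several and 9160 none. Only the first kind was used, giving 18193 genes by the brightest probe set of each, with no filter on dim ones. Array medians were 5.14 to 5.21.

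One limma 3.58.1 model (R 4.3.3, lmFit and eBayes, two-sided) of 4 group means was fitted to all 12 arrays, in place of the analysis of variance of the methods, with Benjamini-Hochberg adjustment over 18193 genes. The model was tested on simulated data. Named genes were the 6 largest called rises and falls per response with non-overlapping arrays, up to 4 largest and 2 smallest WT responses per structural class, disagreeing probe sets, those nearest Nos2 and up to 4 called genes per list, and other names in the text were added after their values were seen. The members and lists were chosen with earlier results of these data known. Alternatives were the arrays in the fit, moderation, an intensity trend, centring, quantile normalization, a filter on dim genes, the probe set rule, thresholds, each array left out in turn and a replicate block. Python 3.11.15 and matplotlib 3.10.9 prepared tables and figures.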

Additional observations from a re-analysis of the deposited data

Results flagged for a closer look

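The responses of the 2 genotypes differed by the test of the difference itself for 1 assembly factor and for 1 probe set of the family. Afg3l2, a subunit of the inner membrane protease that processes Mrpl32, gave 8.76, 8.68 and 8.59 in stimulated Nos2-/-, against 8.7, 8.72 and 8.8 in untreated Nos2-/-. It gave 9.21, 9.08 and 9.21 in stimulated WT, against 8.73, 8.71 and 8.74 in untreated WT. Its responses differed by -0.50 ± 0.09 (SE, limma adjusted p = 0.0204).

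The dimmest of the 4 probe sets of Mrpl52 gave 5.98, 6.03 and 6.37 in stimulated Nos2-/-, against 4.82, 4.7 and 4.86 in untreated Nos2-/-. It gave 5.41, 5.44 and 5.52 in stimulated WT, against 4.94, 4.82 and 5.16 in untreated WT. Its responses differed by 0.85 ± 0.15 (limma over all probe sets, adjusted p = 0.0162). The 3 brighter probe sets of Mrpl52 differed by -0.06, 0.03 and -0.04 and were not called.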

How the results depend on the processing

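The median change stayed below 0 in both responses under every alternative, and the number called lower was 53 to 58 in Nos2-/- and 48 to 56 in WT under the alternatives that keep the threshold of 0.05, apart from arrays left out, and with arrays left out it was 55 to 58 and 52 to 55. With the cutoffs that the methods state, an FDR under 0.5 and a change of 1.5-fold, 31 were lower and 2 higher in Nos2-/-, and 28 lower and 2 higher in WT, against 17.2% lower and 9.42% higher of all genes in Nos2-/- and 16.9% and 9.02% in WT. At an adjusted p under 0.01, 2 were higher in each genotype, and under quantile normalization 8 were higher in WT. With arrays left out the number higher was 4 to 5 in Nos2-/- and 2 to 7 in WT. It was 2 without replicate 1 of untreated WT and 3 without replicate 3 of stimulated WT, against 5, and Mrpl27, Mrpl46 and Mrpl54 each lost their call without at least 1 WT array. Quantile normalization moved the median change to -0.43 in Nos2-/- and -0.34 in WT.

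Between the stimulated genotypes an intensity trend gave 2 genes lower (Mrps6 and Mrpl51), where 486 of all 18193 genes were lower. Leaving out genes below the median signal also gave 2 (Mrps6 and Mrpl2), where 470 of the 9097 genes kept were lower. Arrays left out gave 0 to 1. Mrps6 was called without replicate 1 of stimulated Nos2-/-, where 361 of 18193 genes were lower. The mean of all probe sets gave 1 gene higher (Mrpl52), where 212 of 18193 genes were higher. The median difference between the stimulated genotypes was -0.09 to 0.01 with arrays left out, and that between the responses -0.11 to -0.02. No gene was called between the untreated genotypes or for the difference between the responses under any alternative.

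Some called responses in WT turned sign. Mrpl17 was at 0.07 with the mean of its probe sets, Mrpl38 at 0.07 without probe sets ending in _s_at or _x_at, and Mrpl38 and Mrpl9 at 0.00 and 0.01 under quantile normalization. The causes were not tested. Without those probe sets 73 of the 76 genes were measured. A fit of only the arrays compared could not be made for the difference between the responses, which uses all arrays. Of 121 called responses 63 were called under every alternative run for them, and 58 lost their call under at least 1. Most of the 58 lost it only with the cutoffs of the methods, which add a change of 1.5-fold.

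A replicate block gave 57 lower and 4 higher in Nos2-/- and 53 lower and 5 higher in WT, and none in the other comparisons. Same-numbered arrays correlated at -0.26 to 0.211 in their deviations from group means, with 2 of 18 pairs over 0.1. Arrays with different numbers correlated at -0.166 to 0.274. Between untreated Nos2-/- and untreated WT, same-numbered arrays correlated at 0.106, 0.032 and 0.211, and the others at -0.155 to 0.077. Deviations within such small groups cannot decide whether same-numbered arrays were paired, so pairing by mouse or culture is left unknown.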
